A study of Mus musculus with 30 samples.

Results

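The 10 genes described here are Adipoq, Cfd, Fabp4, Plin1, Lep, Retn, Adig, Cidec, Pparg and Plin4, which mark adipocytes or encode the hormones that adipocytes release. They were given by name and were looked up by symbol among the 56951 gene symbols of the deposited tables, where each of the 10 was found on a row that passed the filter on low values. The tissue was the gastrocnemius muscle, removed along with the plantaris, of male wild-type C57BL/6J mice, and 1 poly(A)-selected library was sequenced from each mouse. Mice of the LD group (n = 14) lived under lights on from 8 to 20 h throughout, and mice of the ADV group (n = 16) lived under a light-dark cycle moved forward by 8 h once every 4 days. Both groups entered the schedules at 14 weeks of age, after a period in constant darkness, were housed singly with a running wheel and were sampled after 64 weeks. Sampling took place during the light period, on days when the ADV mice had lights on from 8 to 20 h as well. The labels do not give the hour at which each mouse was sampled. The labels name no sequencing or dissection batch and the p-values measure the spread between these mice.

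Adipocytes store triglyceride in a single large droplet and release hormones, the adipokines, into the blood. In skeletal muscle they lie between the fibers and along the fascia, arise from fibro-adipogenic progenitors, and become more frequent with age, inactivity and injury. Genes used as their signature include the adipokines adiponectin, leptin, resistin and adipsin, the coat proteins of the lipid droplet, and the nuclear receptor PPARγ that drives their differentiation, and some of them, such as Plin4, are expressed in muscle fibers too. In a whole-muscle library, a change in the number of adipocytes and a change in the RNA of each adipocyte cannot be told apart.

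The contrasts described below turned on 3 genes, and the 250 bases before their annotated transcript starts are printed to show the sequence in front of each. Adipoq was the gene against which the others were compared, Lep was the most variable of the 10, and Adig was the only one that passed the test between the groups. The windows are on GRCm39, read 5′ to 3′ on the strand of the gene, with starts from the GENCODE vM39 annotation: Adipoq at chr16:22965036-22965285 (plus strand), Lep at chr6:29059966-29060215 (plus strand) and Adig at chr2:158344214-158344463 (plus strand). Capitals mark matches to any of the motifs named after them.
Adipoq: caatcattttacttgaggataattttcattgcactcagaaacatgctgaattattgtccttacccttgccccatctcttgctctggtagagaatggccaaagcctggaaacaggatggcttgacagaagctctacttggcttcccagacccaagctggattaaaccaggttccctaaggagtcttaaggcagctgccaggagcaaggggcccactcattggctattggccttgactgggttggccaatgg
Lep: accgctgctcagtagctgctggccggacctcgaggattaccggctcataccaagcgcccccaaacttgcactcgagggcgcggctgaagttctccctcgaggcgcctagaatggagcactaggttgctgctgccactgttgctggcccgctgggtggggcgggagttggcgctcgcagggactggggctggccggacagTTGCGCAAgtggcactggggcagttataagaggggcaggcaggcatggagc
Adig: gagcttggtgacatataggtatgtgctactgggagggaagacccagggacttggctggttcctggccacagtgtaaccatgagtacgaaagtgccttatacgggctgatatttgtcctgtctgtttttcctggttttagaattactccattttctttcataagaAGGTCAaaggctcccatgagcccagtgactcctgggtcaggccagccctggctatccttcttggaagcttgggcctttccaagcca
In the windows of the 10 genes and of 12028 tested genes, 5 motifs were searched. TATAAA was searched on the strand of the gene alone, and the others on both strands. The C/EBP motif TTNNGCAA, whose factors act with PPARγ in adipocyte differentiation, was found in the Lep window, 51 bases before the start, and in 7.90% of all windows. The nuclear receptor hexamer AGGTCA was found in Adig, 86 bases before the start, and in Fabp4, 225 bases before it, and in 11.6% of all windows. The full direct repeat of this hexamer with 1 base between its copies (DR1), bound by PPARγ with its partner RXR, was in none of the 10 and in 0.0249% of all windows, and the clock E-box CACGTG was in none of the 10 and in 7.71% of all. TATAAA was found in Pparg, 240 bases before the start, and in 4.54% of all windows. A match describes letters only, and these windows leave out the distal enhancers.

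The exon counts of a library summed to between 19015401 and 28512674 read pairs in LD and between 18875468.5 and 25699603.5 in ADV. The tissue label held in every library: the muscle creatine kinase gene Ckm was between 6288 and 9700 FPKM and the skeletal actin gene Acta1 between 15106 and 20209 FPKM, where FPKM is the number of fragments scaled by exon length and by the size of the library. Adipocyte transcripts were therefore a minor share of the RNA, and the lowest read numbers among the 10 genes were 11.5 for Retn, 18 for Lep and 31.5 for Adig in 1 library each.

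Levels per length differed widely among the 10 genes. Averaged over the 30 mice, Fabp4 was the most abundant (201 FPKM), followed by Cfd (68.1 FPKM) and Plin4 (64.7 FPKM), then by Adipoq (19.9 FPKM) and Cidec (11.7 FPKM). Lep (5.24 FPKM), Adig (5.22 FPKM), Plin1 (4.77 FPKM) and Retn (4.70 FPKM) formed a lower tier, and Pparg (2.15 FPKM) was the lowest. Within each tier the ranges over mice overlapped. The order of Cfd and Plin4, and the order of the 4 genes of the lower tier, was not compared within each mouse.

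Adig rose under the shifting schedule, by 0.54 on the log2 scale, and it was the only one of the 10 that passed both limits of the test. Fabp4 was higher by 0.37, just under the fold limit, and Lep by 1.58, just over the limit on the adjusted p-value. The adiponectin, Cidec, Plin1 and Pparg transcripts had positive log2 fold changes between 0.38 and 0.88 that did not pass, and Cfd, Retn and Plin4 had values between -0.08 and 0.04. A gene was called where edgeR's quasi-likelihood test gave a Benjamini-Hochberg adjusted p-value under 0.05 over all 12030 genes tested and a fold change over 1.3.

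Among the adipokines, Adipoq (adiponectin, an insulin-sensitizing hormone; chr16:22965286-22976778) ranged from 4.00 to 35.1 FPKM in the LD group with a median of 13.98 FPKM. In the ADV group it ranged from 2.44 to 83.7 FPKM with a median of 19.4 FPKM. The ranges overlapped: 4 of 16 ADV mice were above the highest LD mouse, and 6 were below the LD median. The log2 fold change of Adipoq was 0.79 ± 0.37 (SE), with an adjusted p-value of 0.144 in edgeR's quasi-likelihood test, and the two-sided exact Wilcoxon rank-sum test gave p = 0.120.

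Lep (leptin, the satiety hormone that reports fat stores to the brain; chr6:29060219-29073876) spanned 0.235 to 9.02 FPKM among LD mice, with a median of 1.61 FPKM. Among ADV mice it spanned 0.462 to 39.6 FPKM, with a median of 4.63 FPKM, and 12 of 16 ADV mice lay above the LD median. The highest mouse of a group had 38.4 times the level of the lowest in LD and 85.8 times in ADV, which was the widest span of the 10 genes in both groups. Its log2 fold change was 1.58 ± 0.54 (SE) with an adjusted p-value of 0.0535 in edgeR, and the exact rank-sum test gave p = 0.0771. DESeq2 called Lep, with an adjusted p-value of 0.0304. Without the library of mouse ADV 24, which had the highest Lep, the edgeR estimate was 1.12 with an adjusted p-value of 0.134, and without LD 23, the highest LD mouse, it was 1.89 with an adjusted p-value of 0.0270.

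Retn (resistin; chr8:3705770-3710110) and Cfd (adipsin, or complement factor D, the protease that starts the alternative pathway; chr10:79726687-79728441) did not follow Adipoq and Lep between the groups. Cfd ran from 20.8 to 106 FPKM in LD (median 77.2 FPKM) and from 13.98 to 211 FPKM in ADV (median 57.2 FPKM). Retn ran from 1.23 to 8.68 FPKM in LD (median 4.48 FPKM) and from 0.606 to 14.7 FPKM in ADV (median 3.53 FPKM). For both genes the median was lower in ADV while the mean was slightly higher, since mouse ADV 27 had the highest level of each, and 11 of 16 ADV mice were below the LD median. The log2 fold changes were 0.04 ± 0.29 for Cfd and 0.01 ± 0.34 for Retn (SE), with adjusted p-values of 0.947 and 0.988 in edgeR, and without ADV 27 they were -0.16 and -0.20.

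Of the lipid droplet proteins, Cidec (which fuses droplets into a large store; chr6:113401595-113412721) was between 2.00 and 17.2 FPKM in LD, with a median of 8.39 FPKM, and between 1.48 and 61.1 FPKM in ADV, with a median of 11.3 FPKM. Every LD mouse was exceeded by 5 ADV mice, and 6 were under the LD median. Its log2 fold change was 0.88 ± 0.37 (SE; adjusted p = 0.105 in edgeR), and 0.57 (adjusted p = 0.250) without ADV 24, its highest mouse. Plin1 (perilipin 1, which gates lipolysis on the droplet; chr7:79369966-79382535) was between 1.25 and 8.995 FPKM in LD and between 0.757 and 19.3 FPKM in ADV, with medians of 3.04 and 3.81 FPKM. Its log2 fold change was 0.52 ± 0.36 (SE; adjusted p = 0.336 in edgeR), and 0.28 (adjusted p = 0.621) without ADV 24, which was again the highest.

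Plin4 (perilipin 4, which coats small droplets and is also expressed in muscle fibers; chr17:56407591-56416803) stood apart from the other droplet genes in being narrower in ADV than in LD. It spanned 33.1 to 129 FPKM in LD and 32.6 to 95.6 FPKM in ADV, with medians of 54.8 and 58.4 FPKM, and no ADV mouse was above the highest LD mouse. The log2 fold change was -0.08 ± 0.20 (SE; adjusted p = 0.813 in edgeR). The last exons of Plin4 run against those of Hdgfl2 on the other strand, and 38.7% of the exon bases of Plin4 lie in both. The sources used here do not say whether reads were counted by strand, so reads of these 2 genes may be mixed. Of the exon bases of Adipoq, Fabp4 and Cidec, 16.7%, 14.7% and 7.66% lie opposite noncoding antisense genes.

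Fabp4 (the fatty acid carrier of adipocytes, also present in capillary endothelium and macrophages; chr3:10269148-10273636) ranged from 115 to 216 FPKM in LD (median 173 FPKM). In ADV it ranged from 161 to 402 FPKM (median 206 FPKM), and 14 of 16 ADV mice were above the LD median. The difference was 0.37 ± 0.10 on the log2 scale (SE), with an adjusted p-value of 0.0228 in edgeR, and the exact rank-sum test gave p = 0.00449. Because its fold change was just under 1.3, Fabp4 was not called, although leaving out 1 library at a time moved it over the fold limit in 9 of 30 fits.

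Adig (adipogenin, a small membrane protein induced as adipocytes differentiate; chr2:158344532-158350118) lay between 2.18 and 5.80 FPKM in the LD group, with a median of 4.37 FPKM. In the ADV group it lay between 3.78 and 11.1 FPKM, with a median of 5.90 FPKM. The groups overlapped, but 9 of 16 ADV mice were above every LD mouse and 14 were above the LD median. The log2 fold change was 0.54 ± 0.14 (SE), with an adjusted p-value of 0.0136 in edgeR, and the exact rank-sum test gave p = 7.4e-04. The call held in all 30 fits that each left out 1 library, with estimates of 0.47 to 0.59 and adjusted p-values of 0.00853 to 0.0243.

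Adjusting for either of 2 scores ended the call of Adig. With a score of 5 slow fiber genes as a covariate the estimate was 0.42 and the adjusted p-value 0.0600 in edgeR, against 0.0511 for the slope of Adig on that score (0.22 ± 0.07 per unit of score). The score was lowest in LD 23 (-3.11), the mouse with the lowest Adig, and highest in ADV 24 (1.78), the mouse with the highest Adig, and its part in the difference was not tested. With a clock gene score, the mean of 6 genes that peak with Dbp minus that of 5 genes that peak with Bmal1, the estimate was 0.32 and the adjusted p-value 0.503. That score ran from -1.07 to 3.05 in LD and from -2.32 to 1.25 in ADV, so it largely separated the groups, and with it edgeR called 0 of the 12030 genes, with 1442 at an unadjusted p-value under 0.05. With the clock score Lep was at 2.52, Cidec at 1.55, Adipoq at 1.22 and Fabp4 at 0.52. Plin1 was at 0.65, Plin4 at 0.57 and Cfd at 0.24, and all of these exceeded their values without the score. Pparg (0.37) and Retn (-0.13) were, like Adig, below theirs. No other tool was run with the score.

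Pparg (the nuclear receptor that directs adipocyte differentiation; chr6:115337912-115467360) was low in every mouse, from 1.15 to 2.85 FPKM in LD (median 1.80 FPKM) and from 1.53 to 4.203 FPKM in ADV (median 2.25 FPKM). The LD median was exceeded by 12 of 16 ADV mice. The log2 fold change was 0.38 ± 0.14 (SE; adjusted p = 0.0612 in edgeR), the exact rank-sum test gave p = 0.0275, and DESeq2 called it with an adjusted p-value of 0.0412. The rank-sum p-values of the 10 genes were not adjusted among themselves.

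**Figure D1:**
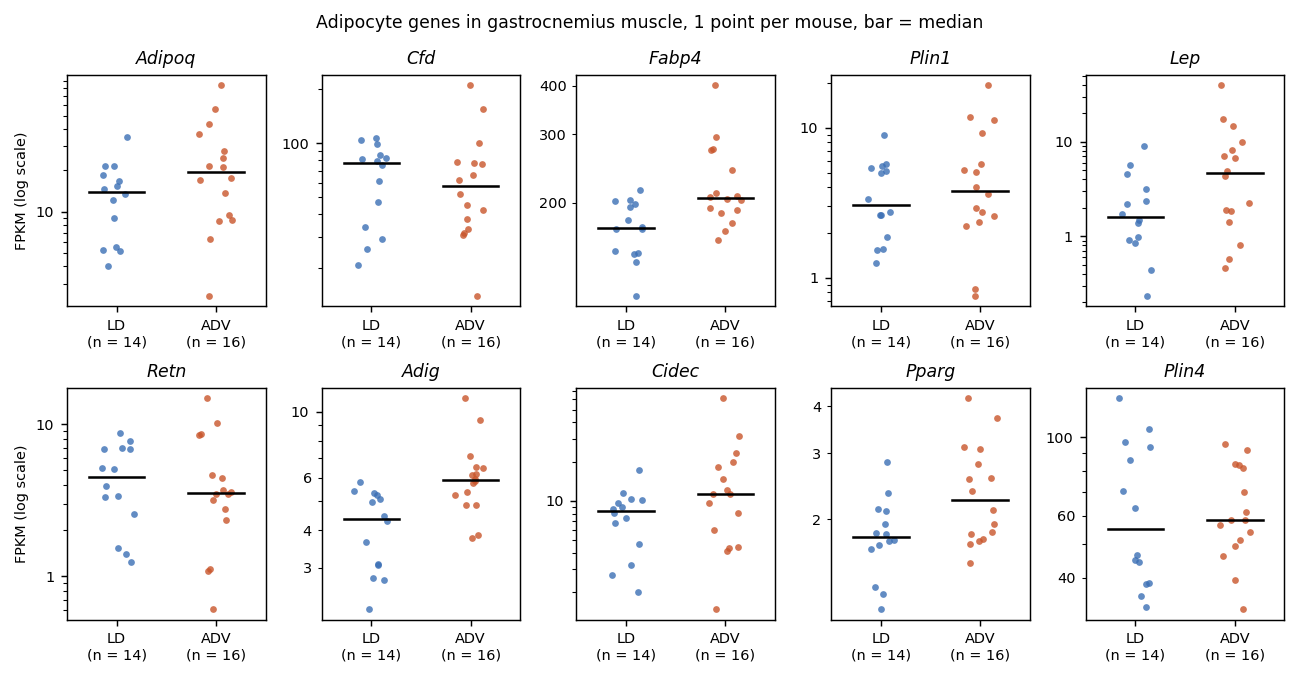
Level of each of the 10 genes in FPKM (log axis, a separate scale per gene) in the 14 LD mice and 16 ADV mice. Each point is 1 mouse and the bar is the group median. For Adig, 9 of 16 ADV mice sit above the highest LD mouse, whereas for Cfd and Retn the ADV median sits below that of LD.

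Read as a group, 9 of the 10 genes had a positive log2 fold change, where 51% of all genes had one. Of the 9, Cfd (0.04) and Retn (0.01) were near 0. The median of the 10 was 0.45, against 0.0035 over all 12030 genes. As 6 of the 10 moved together from mouse to mouse (below), they are not 10 separate observations. Of the 10, 1 was called higher and none lower by edgeR, and over all genes 1.45% were called higher and 0.64% lower. At an unadjusted p-value under 0.05, 6 of the 10 were higher and none lower, where 15.3% of all genes were higher and 14.8% lower, the shares against which the unadjusted counts of the gene lists below are also to be read. At an adjusted p-value under 0.05 in edgeR without the fold limit there were 2 of the 10, Fabp4 and Adig, both higher, where 5.74% of all genes were higher and 5.12% lower. By DESeq2 3 were called higher (Adig, Lep and Pparg) and none lower, where 1.77% of all genes were called higher and 0.756% lower.

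The same few mice supplied the extremes. Mouse ADV 24 was the highest of its group for 7 of the 10 genes (Adipoq, Fabp4, Plin1, Lep, Adig, Cidec and Pparg), and ADV 29 was the lowest of its group for 5. In the LD group, LD 22 was the lowest for 6 genes and LD 23 the highest for 4 (Adipoq, Plin1, Lep and Cidec). Adig departed from this order, being highest of the LD group in LD 22 and lowest in LD 23.

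The spread between mice of 1 group was large for most of these genes. The SD of log2 CPM (counts scaled to library size) was 1.39 for Lep in LD and 1.81 in ADV, and 0.93 and 1.26 for Adipoq, where the median over all tested genes was 0.176 and 0.199. Cidec, Plin1, Retn and Cfd had SDs between 0.81 and 1.28, above at least 98% of all genes in each group. Fabp4 was the steadiest of the 10, at 0.25 and 0.32 (above 70.4% and 80.7% of genes). Pparg was at 0.33 and 0.41 and Adig at 0.43 and 0.35, so Pparg came next in LD and Adig in ADV. The spread of Adig and Plin4 was smaller in ADV than in LD, and the differences in spread were not tested.

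From mouse to mouse 6 genes moved together, namely Adipoq, Cidec, Plin1, Lep, Cfd and Retn. Over the 15 pairs among them the Pearson correlation of log2 CPM between mice had a median of 0.83 in LD (0.49 to 0.96) and 0.86 in ADV (0.44 to 0.99). Fabp4 had a lower r with Adipoq than these genes in LD, but a higher one than Cfd and Retn in ADV, and Plin4 had r near 0 with Adipoq in both groups. The 18 relations with Adipoq (9 genes in each group) are given with permutation tests of 100000 draws, for which 1e-05 is the smallest p-value that can be given, and with the edgeR slope of each gene on Adipoq within groups, whose p-value was adjusted over 12029 genes. In that fit 2.28% of all genes had a positive slope and 0.233% a negative slope at an adjusted p-value under 0.05, and 6 of the 9 had a positive one.

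Of the 9 genes Cidec had the highest r with Adipoq in ADV, though not in LD, where Cfd and Plin1 were closer. It had r = 0.92 (p = 1e-05) and rho = 0.78 (p = 0.00146, permutation tests) in LD and r = 0.99 (p = 1e-05) and rho = 0.99 (p = 1e-05) in ADV. Without the 2 mice farthest from the median of Adipoq, r was 0.87 and 0.99. Its slope was 0.97 ± 0.05 log2 units of Cidec per log2 unit of Adipoq (SE; adjusted p = 3.9e-16 in edgeR). Plin1 was alike in both groups, at r = 0.96 (p = 1e-05) and rho = 0.91 (p = 2e-05) in LD and r = 0.95 (p = 1e-05) and rho = 0.93 (p = 1e-05, permutation tests) in ADV, with r of 0.93 and 0.91 without the 2 mice and a slope of 0.93 ± 0.06 (adjusted p = 1.7e-13 in edgeR).

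Lep had the steepest slope, 1.28 ± 0.12 (SE; adjusted p = 5.9e-09 in edgeR), in log2 units of Lep per log2 unit of Adipoq. Its correlation was r = 0.81 (p = 4.8e-04) and rho = 0.80 (p = 8.9e-04, permutation tests) in LD and r = 0.91 and rho = 0.94 (both p = 1e-05) in ADV, with r of 0.82 and 0.88 without the 2 mice. Fabp4 had the shallowest of the significant slopes, 0.20 ± 0.03 (adjusted p = 4.2e-05 in edgeR), with r = 0.71 (p = 0.0049) and rho = 0.71 (p = 0.00585, permutation tests) in LD and r = 0.79 (p = 3.7e-04) and rho = 0.73 (p = 0.00186) in ADV. Without the 2 mice its r was 0.65 and 0.73.

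Cfd and Retn were tied more closely to each other than to Lep. Cfd correlated with Adipoq at r = 0.96 and rho = 0.95 in LD (both p = 1e-05) and at r = 0.70 (p = 0.00265) and rho = 0.64 (p = 0.0088, permutation tests) in ADV, with r of 0.93 and 0.60 without the 2 mice. Retn correlated with Adipoq at r = 0.84 (p = 2.5e-04) and rho = 0.70 (p = 0.00661) in LD and r = 0.76 (p = 5.4e-04) and rho = 0.66 (p = 0.00711, permutation tests) in ADV, with r of 0.72 and 0.61 without the 2 mice. The slopes were 0.67 ± 0.10 for Cfd and 0.73 ± 0.13 for Retn (adjusted p = 1.7e-05 and 3.1e-04 in edgeR). Between each other they had r = 0.92 in LD and 0.89 in ADV, whereas Lep and Cfd had 0.71 and 0.44, and Lep and Retn 0.49 and 0.58. The log2 ratio of Cfd to Adipoq (from FPKM + 0.1) was 2.30 ± 0.29 (SD, n = 14) in LD and 1.65 ± 0.89 (n = 16) in ADV. It fell within 1.48 to 2.60 in LD and within -0.09 to 2.83 in ADV, and the difference in this spread was not tested.

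Adig, Pparg and Plin4 had no significant slope on Adipoq. For Adig r was -0.39 (p = 0.171) and rho -0.30 (p = 0.303) in LD and 0.49 (p = 0.0575) and 0.50 (p = 0.0501, permutation tests) in ADV, with r of -0.43 and 0.33 without the 2 mice, and the slope was 0.06 ± 0.06 (adjusted p = 0.796 in edgeR). The change of sign between the groups was not tested. For Pparg r was 0.41 (p = 0.143) and rho 0.54 (p = 0.048) in LD and 0.48 (p = 0.0614) and 0.62 (p = 0.0123, permutation tests) in ADV, with r of 0.30 and 0.51 without the 2 mice and a slope of 0.15 ± 0.05 (adjusted p = 0.163 in edgeR). For Plin4 r was -0.09 (p = 0.757) and rho -0.16 (p = 0.585) in LD and 0.02 (p = 0.951) and -0.14 (p = 0.608, permutation tests) in ADV, with r of -0.26 and -0.14 without the 2 mice and a slope of -0.04 ± 0.10 (adjusted p = 0.926 in edgeR).

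**Figure D2:**
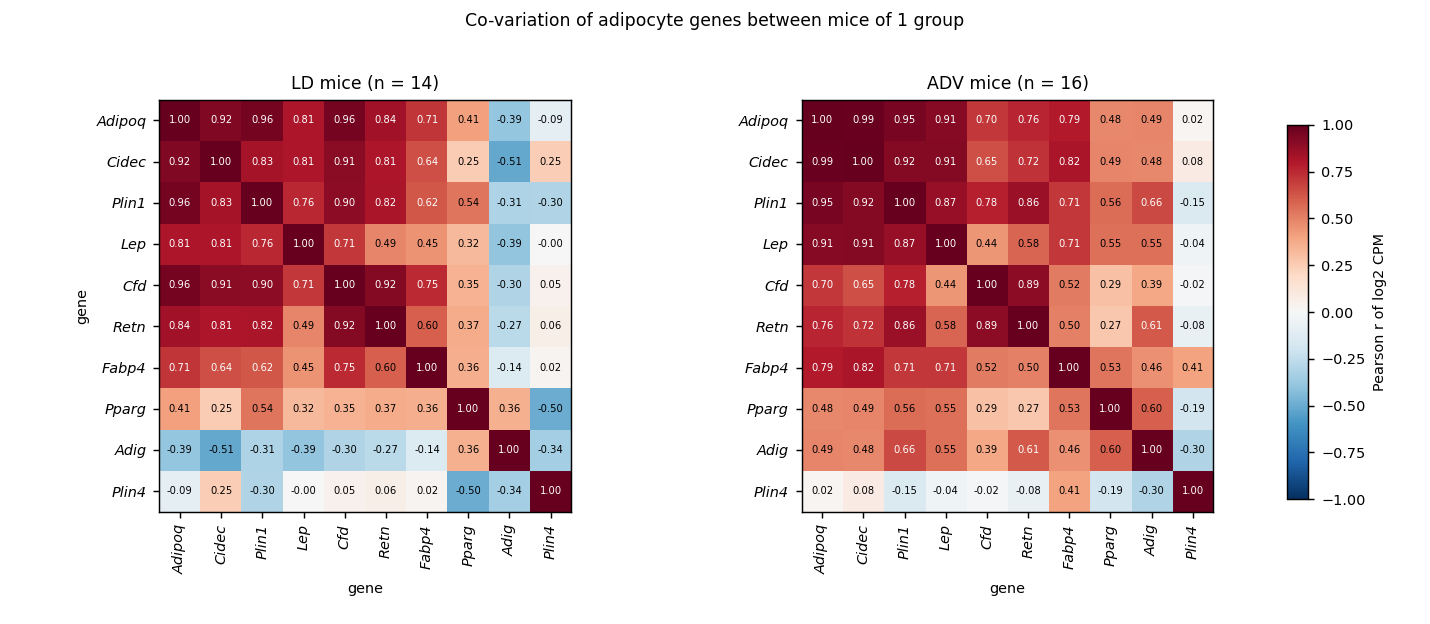
Pearson r of log2 CPM between each pair of the 10 genes over the 14 LD mice (left) and the 16 ADV mice (right), with the color from -1 (blue) to 1 (red). Adipoq, Cidec, Plin1, Lep, Cfd and Retn form a block of high values in both groups (medians 0.83 and 0.86), and Plin4 lies outside it.

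**Figure D3:**
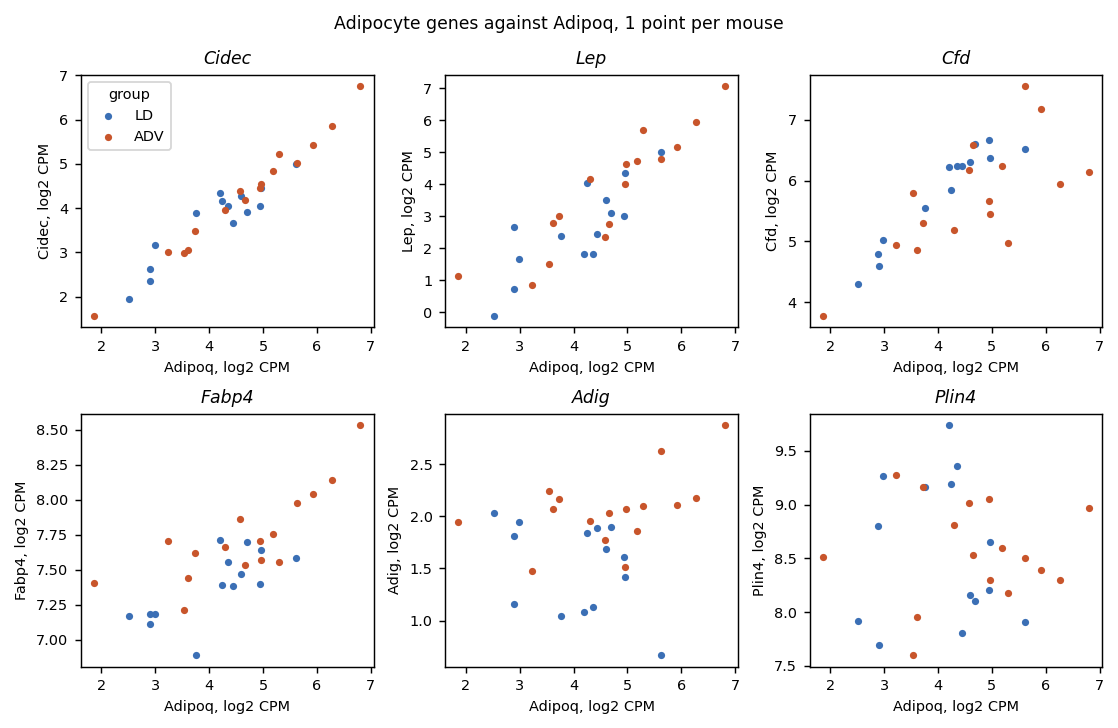
Log2 CPM of Cidec, Lep, Cfd, Fabp4, Adig and Plin4 (vertical axes) against log2 CPM of Adipoq (horizontal axes), 1 point per mouse, LD in blue and ADV in orange. Cidec follows Adipoq along 1 line in both groups (r = 0.92 and 0.99), Cfd scatters in ADV (r = 0.70), and Adig has r of -0.39 in LD and 0.49 in ADV.

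To compare the groups at the same Adipoq level, Adipoq was entered in the edgeR fit as a covariate, and over all genes 1.47% were then called higher and 0.873% lower in ADV. Among the 9 other genes Adig alone was called, with a log2 fold change of 0.50 ± 0.15 (SE; adjusted p = 0.0280 in edgeR), close to its value without the covariate. As the slope of Adig on Adipoq was 0.06 ± 0.06, this covariate could move its estimate only little. The fit also took the same slope for both groups, where r was -0.39 in LD and 0.49 in ADV. The call of Adig was lost in 2 of 30 fits that left out 1 library, at an adjusted p-value of up to 0.0545 (without LD 23). Fabp4 went from 0.37 to 0.24 ± 0.07 with an adjusted p-value of 0.0284, under the fold limit, and the adjusted p-value rose to 0.0558 without LD 28 and to 0.0714 without ADV 29.

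The estimates of the other genes, none of which was called, moved as follows at a matched Adipoq level. Cidec went from 0.88 to 0.01 ± 0.11, and Lep from 1.58 to 0.41 ± 0.28 (adjusted p = 0.969 and 0.341 in edgeR). Plin1, Cfd and Retn were at -0.24 ± 0.13, -0.33 ± 0.19 and -0.46 ± 0.25, with adjusted p-values of 0.213, 0.240 and 0.222. Pparg was at 0.29 ± 0.13 (adjusted p = 0.132 in edgeR) and Plin4 at -0.06 ± 0.21 (adjusted p = 0.882). With Plin1 as the covariate, Adipoq itself was at 0.34 ± 0.12 (adjusted p = 0.0707), Lep at 0.84 (adjusted p = 0.0836), Fabp4 at 0.30 (adjusted p = 0.0123), Cidec at 0.35 ± 0.18 (adjusted p = 0.174) and Adig at 0.49 (adjusted p = 0.0212), and Adig was again the one called. The value of Cidec near 0 was thus obtained with Adipoq as the covariate and not with Plin1.

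**Figure D4:**
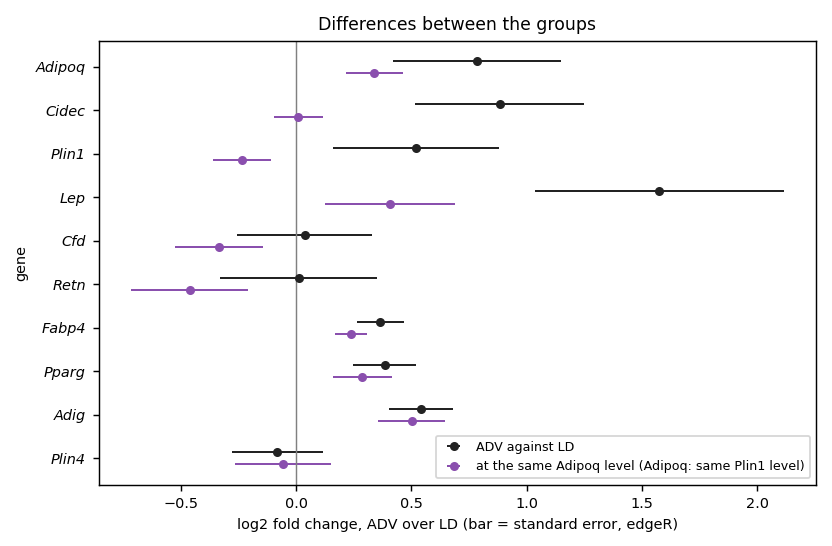
Log2 fold change of ADV over LD for each gene from edgeR, with bars for 1 SE, without a covariate (black) and at the same Adipoq level (purple, or the same Plin1 level for Adipoq itself). Cidec goes from 0.88 to 0.01 with Adipoq as the covariate (0.35 with Plin1, not drawn), and Adig from 0.54 to 0.50.

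The genes outside the 10 whose levels were most like Adipoq over the 30 mice, after the group means were subtracted, were Prkar2b (a regulatory subunit of protein kinase A, r = 0.97), Slc7a10 (an amino acid transporter of white adipocytes, 0.96), Acp5 (an acid phosphatase, 0.95), Phgdh (the first enzyme of serine synthesis, 0.95), Tmem45b (0.94), Serpina3c (0.93), Sncg (γ-synuclein, 0.93) and Hp (haptoglobin, 0.92). Their log2 fold changes between the groups were 0.38 to 1.06, and none passed the test, with adjusted p-values in edgeR from 0.0869 for Hp to 0.394 for Serpina3c. In the same ranking of all other tested genes Cidec was in place 2 and Plin1 in place 4, followed by Lep (26), Cfd (57), Retn (58) and Fabp4 (65), while Pparg (521), Adig (3752) and Plin4 (6208) were far down.

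The nearest neighbors of the remaining genes were looked up after their values were seen. Cfd was closest to Trf (transferrin, r = 0.91) and Scd1 (stearoyl-CoA desaturase, 0.90), Retn to Cdo1 (cysteine dioxygenase, 0.92), and Lep to Npr3 (the natriuretic peptide clearance receptor, 0.92). Plin4 was closest to Galnt15 (0.93), Slc43a3 (a purine base transporter, 0.92) and Klf9 (a Krüppel-like transcription factor, 0.91). Adig was closest to Nab1 (0.80), whose own log2 fold change between the groups was -0.01.

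Genes of adipocyte biology beyond the 10 were described by list. Of 30 other adipocyte-enriched genes 20 were tested: their median log2 fold change was 0.46 and their median r with Adipoq 0.85, with 16 of 20 over 0.5, against medians of 0.0035 and -0.02 over all genes. Ces1d (a carboxylesterase that hydrolyzes lipid) was the one called, at 18.1 ± 5.64 FPKM in LD and 25.1 ± 7.14 FPKM in ADV (mean ± SD) and a log2 fold change of 0.46 (adjusted p = 0.0387 in edgeR). At matched Adipoq the median of this list was 0.07 and none of its genes was called by edgeR (2 higher and 3 lower at an unadjusted p-value under 0.05). Car3 (carbonic anhydrase 3, shared with slow fibers) and Cavin1 (a caveolar coat protein) were its most abundant genes, with log2 fold changes of 0.27 and 0.20 (adjusted p = 0.141 and 0.0392 in edgeR).

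Many enzymes of lipid handling are also expressed by muscle fibers. Of 28 listed 27 were tested and none was called by edgeR in either direction (6 higher and 1 lower at an unadjusted p-value under 0.05, and 1 called higher by DESeq2), with a median log2 fold change of 0.09. Of these 27, 6 had r over 0.5 with Adipoq, where 3.37% of all genes did, and their median r was 0.17. The most abundant were Gpd1 (glycerol 3-phosphate dehydrogenase, -0.05, adjusted p = 0.677 in edgeR) and Lpl (lipoprotein lipase, 0.19, adjusted p = 0.415). Of 22 adipogenic regulators 18 were tested and none was called by edgeR (3 higher and 1 lower at an unadjusted p-value under 0.05, and 1 called higher by DESeq2). Their median was 0.0035, and the abundant Rxra, the partner of PPARγ, and Fto were at -0.06 and -0.04. Cebpa, which acts with PPARγ and was named after its value was seen, was the 1 regulator with r over 0.5 with Adipoq (0.90).

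Genes of brown and beige fat were mostly below the filter: 7 of 16 were tested. Ucp1, the uncoupling protein that defines brown adipocytes, was listed at 0 FPKM in 13 of 14 LD and 14 of 16 ADV mice. Cidea (a droplet protein related to Cidec) was called higher, at 0.626 ± 0.394 FPKM in LD and 1.09 ± 0.461 FPKM in ADV and a log2 fold change of 0.76 (adjusted p = 0.0492 in edgeR), and it had r = -0.28 with Adipoq. The mitochondrial genes Cox8b and Cox7a1, which fibers also express, were at 0.17 and 0.20 (adjusted p = 0.0408 and 0.111 in edgeR).

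Of 16 adipokine receptors and complement partners 13 were tested. The adiponectin receptor genes Adipor1 and Adipor2 had 99.7 and 37.7 FPKM in LD and 99.6 and 37.4 FPKM in ADV, with log2 fold changes of -0.02 and -0.03 (adjusted p = 0.836 and 0.542 in edgeR). C3ar1, the receptor for the C3a fragment that the alternative pathway releases, was called lower, at 0.707 ± 0.312 FPKM in LD and 0.480 ± 0.165 FPKM in ADV, a log2 fold change of -0.59 (adjusted p = 0.0325 in edgeR), and it is expressed mainly by myeloid cells.

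Markers of other cells that could accompany adipocytes were read beside these values. Of 20 genes of fibro-adipogenic progenitors 7 were higher in ADV and none was called by edgeR (2 higher and 7 lower at an unadjusted p-value under 0.05, and 1 called higher by DESeq2). Their summed level was 846 to 1185 FPKM in LD and 801 to 1148 FPKM in ADV, and their median r with Adipoq was 0.39. The abundant Dcn (decorin) and Gsn (gelsolin) had log2 fold changes of -0.11 and 0.04 (adjusted p = 0.133 and 0.772 in edgeR). Without the fold limit, 2 progenitor genes were lower and 0 higher at an adjusted p-value under 0.05 in edgeR. Over all genes 5.12% were lower and 5.74% higher. The 2 were Pdgfra and Fap, named after their values were seen, both at -0.24 (adjusted p = 0.0198 and 0.0419 in edgeR). Of 15 macrophage genes 3 were higher in ADV and none was called by edgeR or DESeq2 in either direction (1 higher and 4 lower at an unadjusted p-value under 0.05), with a summed level of 113 to 270 FPKM in LD and 99.8 to 197 FPKM in ADV and a median r of 0.45. C1qa and Lyz2 were at -0.05 and -0.29 (adjusted p = 0.805 and 0.133 in edgeR).

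Capillary endothelium, which also expresses Fabp4, had 18 of 20 genes higher in ADV, where 51% of all genes were higher, 5 higher and 0 lower at an unadjusted p-value under 0.05, and 2 called, Eng (endoglin, 0.38, adjusted p = 0.00526 in edgeR) and Rgcc (0.52, adjusted p = 0.0114). Without the fold limit, 4 endothelial genes were higher and 0 lower at an adjusted p-value under 0.05 in edgeR. Over all genes 5.74% were higher and 5.12% lower. Beside Eng and Rgcc these were Pecam1 (0.16, adjusted p = 0.0331 in edgeR) and Emcn (0.27, adjusted p = 0.00924), named after their values were seen. The summed level of the endothelial list was 271 to 437 FPKM in LD and 302 to 501 FPKM in ADV, its median r with Adipoq was -0.17, and Aqp1, its most abundant gene, was at 0.03 (adjusted p = 0.890 in edgeR). The part of endothelium in the difference of Fabp4 was not tested. All 10 slow fiber genes had a positive log2 fold change (median 0.46) and none was called in either direction by edgeR or DESeq2 (0 at an unadjusted p-value under 0.05), with Myl3 and Myl2 at 0.50 and 0.29 (adjusted p = 0.223 and 0.550 in edgeR). Of 12 fast fiber genes 5 were higher and none was called by either tool (2 lower at an unadjusted p-value under 0.05), with Tnnt3 and Myh4 at -0.02 and -0.19 (adjusted p = 0.889 and 0.160 in edgeR). Their median r with Adipoq was -0.16 for slow and 0.05 for fast fibers.

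**Figure D5:**
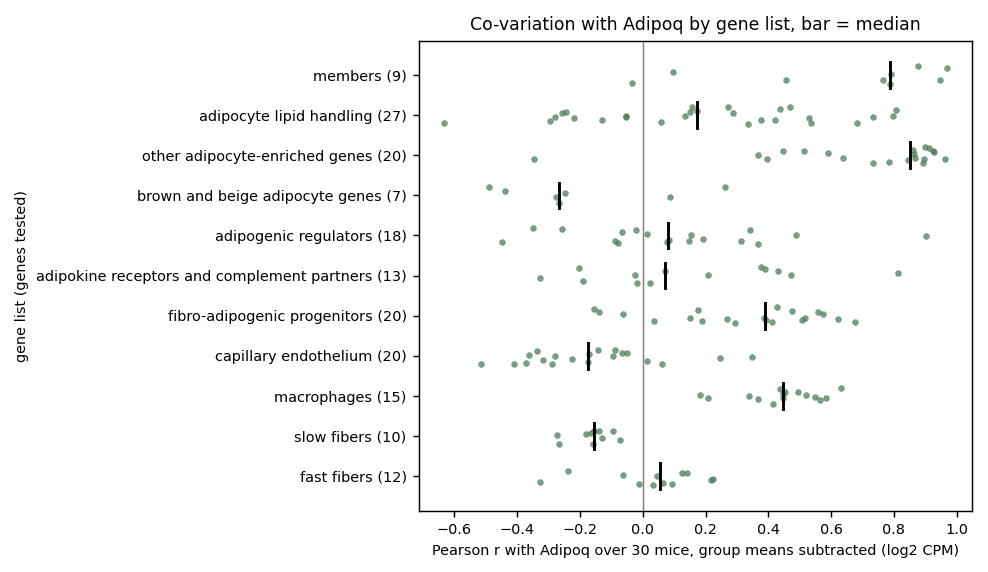
Pearson r with Adipoq over the 30 mice after subtraction of the group means (horizontal axis) for each tested gene of each list (vertical axis, number of genes in brackets), with a bar at the list median. The other adipocyte-enriched genes lie mostly over 0.5 (median 0.85). The fast fiber genes lie around 0 (median 0.05), the slow fiber genes are all negative (median -0.16), and the endothelial genes are mostly negative (median -0.17).

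Of the traits that differed between libraries, none had a slope that passed for any of the 10 genes in edgeR, although 3 of 30 slopes had an unadjusted p-value under 0.05 (Plin4 on the clock score, Adig and Cfd on the slow fiber score). Within groups, 0.233% of all genes had a slope on the clock gene score at an adjusted p-value under 0.05 in edgeR, 7.54% on the slow fiber score, and 24% on the share of reads that fell on exons (90.9 to 91.3% in LD and 91.1 to 92.7% in ADV). The lowest adjusted p-values among the 10 were 0.310 for Plin4 on the clock score (slope 0.27 ± 0.10), 0.0511 for Adig on the slow fiber score, and 0.407 for Adipoq on the exon share.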

How the data were processed

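Gastrocnemius libraries of 14 LD and 16 ADV mice were analysed. The estimated counts deposited by the authors are raw exon counts per transcript row, made with Homer after Trimmomatic trimming, STAR mapping to GRCm39 and removal of low-quality alignments; each mate counts as 0.5 read, and 14.8% of values were not whole. The FPKM values deposited by the authors cover the same 57186 rows. Per the submitters' processing notes STAR was 2.7.10a and HOMER 4.11. Whether counting used the strand is not given in the sources used here. For the 232 symbols on several rows, the longest row with a mean over 20 reads was used.

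Counts were rounded, and the 12030 genes whose means exceeded 20 reads and 0.5 FPKM were fitted with edgeR 4.0.16 (TMM, quasi-likelihood F test, R 4.3.3). DESeq2 1.42.0 and limma 3.58.1 were alternatives, beside other scalings and filters, a GC content trend, covariates, the label number as a block, and leaving out each library. Wilcoxon tests and permutations used scipy 1.17.1. On simulated data with 200 of 12030 genes changed for the comparison of ADV with LD, edgeR made 203 calls and recovered 199 of the changed genes. The changed genes all moved by the same amount, up or down, which exceeded the estimate for each of the 10 genes but Lep. Recovery of smaller differences was not tested. Promoter windows and exon overlaps came from GENCODE vM39, which is newer than the annotation of the tables. At 18875468.5 read pairs or more per library, genes with few reads such as Retn and Adig carry a large counting error.

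Genes were named by rule: the 10 genes, the called genes (at most 5) and the 2 most abundant of each list, and the 8 genes most like Adipoq. The members and lists were chosen with earlier results of these data known. Grip strength, muscle weights and histology were not analysed here.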

Additional observations from a re-analysis of the deposited data

How the results depend on the processing

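Of the 10 genes, 1 was called higher in ADV, against 3 by DESeq2 (Adig, Lep and Pparg), 2 with library size alone and 2 after the GC content trend was removed (Adig and Fabp4 in both), and 0 with the clock gene score or the slow fiber score as a covariate. Leaving out each library in turn gave 1 to 3. At matched Adipoq the count was 1, and 0 to 2 when each library was left out. The other gene lists held 4 genes called higher by edgeR and 8 by DESeq2. No setting called any of the 10 lower, with or without the Adipoq covariate. The count of genes with a rank-sum p-value under 0.05 was 3, and 3 to 4 without each library, and the count with r over 0.5 with Adipoq was 6 in each group, 6 to 7 in LD and 7 to 8 in ADV under the alternatives.

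Values near 0 changed sign, and the cause was not tested. By limma with pseudocounts of 0.1 and 1, Cfd was -0.0532 and -0.0510, Retn -0.129 and -0.0739, and Plin4 0.0189 and 0.0176. Cfd was -0.0706 after the GC trend was removed. Retn was -0.0209 with the GC trend removed and -0.13 with the clock score. Plin4 was 0.57 with the clock score. When each library was left out in turn, Cfd ranged from -0.16 to 0.11, Retn from -0.20 to 0.12 and Plin4 from -0.14 to 0.0383, and at matched Adipoq Cidec ranged from -0.0385 to 0.0594 and Plin4 from -0.13 to 0.0681.

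The label numbers were checked for pairing: of 14 pairs 6 correlated over 0.1 (-0.26 to 0.43). Among the 14 libraries of the other group, 5 of 28 libraries were closest to the one with their own number. Whether these values exceed those expected without pairing was not tested. These 28 libraries leave out ADV 24 and ADV 25, which share no number with an LD library. ADV 24 was the highest ADV mouse for 7 of the 10 genes. With the replicate block Adig stayed called (0.50), Lep was 0.89, Adipoq 0.41, Plin1 0.13, Cidec 0.38, Cfd -0.15 and Retn -0.19. At matched Adipoq Cidec was -0.0011 with the block. Without the block (an alternative added after the data were seen) Lep was 1.09, Adipoq 0.53, Plin1 0.27, Cidec 0.55 and Retn -0.0359. Cidec at matched Adipoq was then -0.0071. Over all genes 174 were called higher and 77 lower, against 94 and 42 with the block and 104 and 47 without it, 213 and 91 by DESeq2, 186 and 50 or 105 and 19 by limma (pseudocounts 0.1 and 1), 118 and 46 with the GC trend removed, 90 and 45 with the slow fiber score, and 0 with the clock score.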
